A study of Rattus norvegicus with 12 samples.

Results

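Prrx2 and the related transcription factor genes of mesenchyme were followed in H9c2 cells: Prrx1, Prrx2, Twist1, Twist2, Snai1, Snai2, Zeb1 and Zeb2. They were found by symbol among the 30562 genes of the table. All 8 were present at 1 locus each and reached the mean of 1 TPM (transcript abundance scaled for gene length and library size) required for testing, as did 12263 genes in all. Prrx2 was chosen because its TPM fell from control to MMA, to FA and to MMA+FA, so its values are a description with no test. The other 7 were chosen by name, and the question was whether any of them followed Prrx2.

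H9c2 cells were derived from rat embryonic heart, and the labels give their type as cardiomyocyte. The 12 libraries of polyadenylated RNA fell into 4 groups of 3: untreated control cells, cells given MMA (methylmalonic acid), cells given FA (folic acid), and cells given both, written MMA+FA. No genotype or other agent differs between the groups in the labels, and the sources used here state neither doses nor times. Nothing in the labels says that replicates were separate cultures, so the p-values measure only the spread between these samples, which may be technical.

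Prrx1 and Prrx2 encode paired-related homeobox proteins that mark the mesenchyme of limb, face and heart valves, and Prrx1 is also known as an inducer of mesenchymal character. Twist1 and Twist2 encode basic helix-loop-helix factors that act as dimers with E proteins. Snai1, Snai2, Zeb1 and Zeb2 encode zinc finger repressors that bind E-boxes in the promoters of epithelial genes. Together these factors are the textbook drivers of epithelial to mesenchymal transition, in which cells lose E-cadherin and gain vimentin, N-cadherin and fibronectin.

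Markers of both heart and skeletal muscle lineages were present in part. Of 18 cardiomyocyte markers 5 were abundant enough to be tested, among them Mef2c (29.0 TPM in control cells), Cacna1c (16.2), Tnnt2 (16.1) and Gata4 (6.41), while the myosin gene Myh6 lay at 0.0333 TPM. Of 12 skeletal myoblast markers 6 were tested, with Myod1 at 72.6 ± 2.57 TPM in control cells (SD, n = 3), while Myf5 lay at 0.0267 TPM and Pax7 at 0. The vimentin gene Vim lay at 1880 ± 32.5 TPM. The E-cadherin gene Cdh1 and Epcam, the defining epithelial genes, were at or near 0, with no library above 0.03 TPM for Cdh1 and 0.11 TPM for Epcam. The N-cadherin gene Cdh2 was also low, between 0.1 and 0.68 TPM. Replicates were alike, with a Pearson's r over genes of 0.987 to 0.992 within groups. Sequencing depth is unknown, since TPM does not keep it.

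Prrx2 fell stepwise over the groups. The control libraries held 34.4, 35.7 and 37.9 TPM of Prrx2 (ENSRNOG00000058329), and the MMA libraries 22.7, 22.9 and 20.5 TPM. With FA the values were 9.65, 11.7 and 9.85 TPM, and with MMA+FA 5.04, 5.39 and 5.98 TPM. No library of any group overlapped with a library of another group. Relative to the control mean, 61.2% of Prrx2 was left after MMA, 28.9% after FA and 15.2% after both. The log2 differences of TPM + 1 from control were -0.68 (SE 0.0797) after MMA, -1.70 after FA and -2.52 after both. Among 12263 genes ordered from the deepest fall, Prrx2 stood at place 59 after MMA, 14 after FA and 11 after both.

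The steps of Prrx2 came close to multiplying. The product of the 2 single ratios is 17.7% of control, or 6.38 TPM, beside the 5.47 ± 0.475 TPM found with MMA+FA (SD, n = 3). Adding MMA to FA left 52.5% of the FA level, and adding FA to MMA left 24.8% of the MMA level. On the log2 scale the interaction was -0.13, given with no test. Sums of muscle markers differed between groups, with overlap between some of the groups. Summed over the cardiomyocyte list they were 77.55 to 82.28 TPM in control libraries, 81.27 to 85.39 after MMA, 111.3 to 114.4 after FA and 135.2 to 156.6 after both, where Tnnt2 made up 73.6 ± 9.53 TPM and Myl7 was at 0. Control and MMA libraries overlapped in this sum. The mean of Tnnt2 itself rose at each step, from 16.1 ± 2.41 TPM in control cells to 21.4 ± 1.55 after MMA and 44.5 ± 2.43 after FA. Skeletal myoblast markers (Pax7 at 0 in every library) summed to 105.4 to 117.2 TPM in control libraries, 95.06 to 97.73 after MMA, 93.09 to 108.2 after FA and 67.47 to 77.72 after both, with FA overlapping both control and MMA. Most of the lower sum was Myod1, at 72.6 ± 2.57 TPM in control cells and 31.7 ± 3.3 after both (SD, n = 3). It lay at 60.0 ± 1.29 TPM after MMA and 55.2 ± 8.33 after FA, so its means ran in the order of Prrx2, with MMA and FA overlapping. Myog lay at 15.8 TPM in control cells and 18.4 after both. The part of these markers in the fall of Prrx2 was not tested. In bulk RNA, fewer cells that express a gene and less RNA per cell cannot be told apart.

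Prrx1 (ENSRNOG00000003720), the close relative of Prrx2, did not pass the test in any comparison. Its TPM was 58.5, 52.8 and 58.5 in the control libraries and 49.3, 52.8 and 53.8 with MMA+FA, so the groups overlapped. With MMA it was 53.8, 58.0 and 49.5 TPM, and with FA 49.7, 56.4 and 48.7 TPM. Its log2 difference with MMA+FA was -0.12 (95% interval -0.27 to 0.03, adjusted p = 0.197 in limma; 0.00 after median-ratio scaling), and the interval leaves out a fall as deep as that of Prrx2. As a result the make-up of the Prrx pair shifted: Prrx2 gave 38.9 ± 1.73% of their summed TPM in control cells, 29.1 ± 0.681% with MMA, 16.8 ± 0.451% after FA and 9.51 ± 0.424% when both were given (SD, n = 3). These shares did not overlap between groups, and they carry the fall of Prrx2 for which the gene was chosen.

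**Figure D1:**
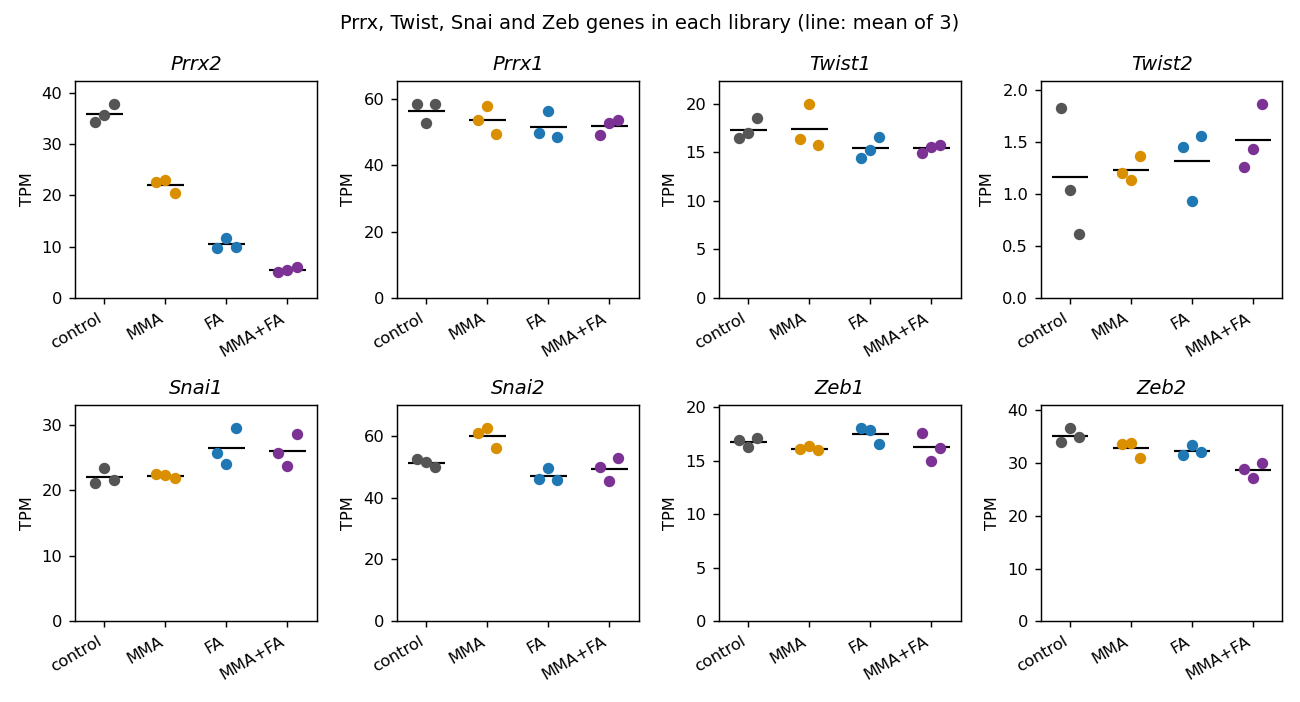
TPM of each of the 8 genes (vertical axes, from 0) in the 12 libraries, by group; points are libraries and lines are means of 3. Prrx2 steps down from 34.4 to 37.9 TPM in control cells to 5.04 to 5.98 TPM with MMA+FA, while Prrx1 stays between 48.7 and 58.5 TPM in all libraries.

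The promoter of Prrx2 is printed with those of Zeb2 and Snai1, the members that passed the test with MMA+FA, to let their upstream sequences be compared. RefSeq gives a promoter for 7 of the 8 genes in the assembly GRCr8, a later build than the mRatBN7.2 of the TPM values, so no position is shared with the deposited table. Shown are the 250 bases before each transcript start, at chr3:34530081-34530330 on the plus strand for Prrx2, chr3:49754324-49754573 on the minus strand for Zeb2, and chr3:176667226-176667475 on the plus strand for Snai1. None of these windows lies inside its gene. Capitals mark E-boxes (CANNTG) and the homeodomain motif TAATTA, which read the same on both strands.
Prrx2: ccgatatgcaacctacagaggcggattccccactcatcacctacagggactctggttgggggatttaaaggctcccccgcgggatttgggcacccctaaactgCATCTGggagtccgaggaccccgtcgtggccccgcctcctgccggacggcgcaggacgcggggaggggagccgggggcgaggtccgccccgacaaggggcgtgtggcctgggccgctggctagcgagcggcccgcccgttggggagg
Zeb2: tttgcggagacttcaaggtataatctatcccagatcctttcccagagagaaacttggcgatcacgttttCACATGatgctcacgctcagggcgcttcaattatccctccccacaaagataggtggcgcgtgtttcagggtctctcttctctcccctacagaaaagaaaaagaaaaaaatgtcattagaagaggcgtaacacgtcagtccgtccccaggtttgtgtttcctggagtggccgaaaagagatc
Snai1: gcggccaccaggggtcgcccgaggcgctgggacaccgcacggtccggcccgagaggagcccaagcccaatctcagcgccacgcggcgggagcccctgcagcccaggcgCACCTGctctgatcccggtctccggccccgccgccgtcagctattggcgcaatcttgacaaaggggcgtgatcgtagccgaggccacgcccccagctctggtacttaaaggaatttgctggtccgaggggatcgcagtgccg

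Each of the 3 windows held 1 E-box and no homeodomain motif. Zeb1, which passed no test, also held 1 E-box, and Prrx1, Twist1 and Twist2 held 0. Of 33469 rat promoters of this length, 65.5% held at least 1 CANNTG and 4.86% the homeodomain motif. CAGGTG, which reads CACCTG on the other strand, is the E-box form that Snail and Zeb proteins bind and a subset of CANNTG. It was in the windows of Snai1 and Zeb1 only among the 7, against 15.9% of all promoters. The Prrx2 window had 70% G and C and 23 CpG sites, where the median promoter had 51.2% and 5. Prrx1 differed from it, with 43.2% G and C and 4 CpG sites. Twist1, Twist2 and Snai1 lay near Prrx2, at 69.2%, 67.2% and 69.6% with 27, 27 and 26 CpG sites, and Zeb2 had 47.6% and 11. A match is a description of these letters and not a site.

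Zeb2 (ENSRNOG00000004677) was the one other member whose group means ran in the order of Prrx2, an order found for 13.7% of all genes tested and so not particular to it. It had 34.0, 36.7 and 34.9 TPM in control libraries, 33.6, 33.9 and 30.9 with MMA, 31.5, 33.4 and 32.1 with FA, and 29.0, 27.2 and 29.99 with MMA+FA. The MMA+FA libraries lay below all others, while the MMA and FA libraries overlapped. Zeb2 fell with MMA+FA to 81.6% of control, a log2 difference of -0.29 (SE 0.0535, adjusted p = 0.0016 in limma), lower in 3 of 3 libraries. The median of all genes tested shifted by -0.12 in this comparison, and under median-ratio scaling, in which the typical gene is unchanged, the fall was -0.17 (adjusted p = 0.0217). The call held in all 16 alternative settings, with adjusted p between 0.00126 and 0.0217.

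Steps between neighbours in the order of Zeb2 were weaker. MMA alone (-0.10, adjusted p = 0.205) and FA alone (-0.12, adjusted p = 0.152) did not pass against control in limma, and FA and MMA differed by -0.02 (95% interval -0.14 to 0.10). MMA+FA was lower than MMA (-0.19, adjusted p = 0.0372 in limma), a call lost in 9 of 16 alternative settings. It was lost under a replicate block (adjusted p = 0.0609), median-ratio scaling (-0.14, adjusted p = 0.0718) and quantile normalization (-0.15, adjusted p = 0.0646). The same held with no filter on low values (adjusted p = 0.0538) and in a fit of only the groups compared (adjusted p = 0.0791). It was also lost without MMA replicate 1 (-0.17, adjusted p = 0.133) or 2 (-0.16, adjusted p = 0.142), or without MMA+FA replicate 1 (-0.19, adjusted p = 0.0774) or 2 (-0.15, adjusted p = 0.129). MMA+FA against FA missed the threshold (-0.17, adjusted p = 0.0661). Without MMA replicate 2 the group means of Zeb2 no longer ran in the order of Prrx2.

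Zeb1 (ENSRNOG00000017863), which encodes the other zinc finger homeobox repressor of this pair, did not pass in any comparison. Its control libraries held 17.0, 16.3 and 17.1 TPM and its MMA+FA libraries 17.6, 14.96 and 16.2 TPM, an overlap, with a log2 difference of -0.05 (95% interval -0.18 to 0.08). With MMA it lay between 15.99 and 16.4 TPM and with FA between 16.56 and 18.08 TPM. Zeb1 gave 32.3 ± 1.34% of the summed Zeb TPM in control cells and 36.1 ± 1.46% with MMA+FA (SD, n = 3).

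Snai1 (ENSRNOG00000009594) went the other way. Its TPM was 21.2, 23.4 and 21.5 in control libraries, 22.5, 22.3 and 21.8 with MMA, 25.7, 24.1 and 29.5 with FA, and 25.6, 23.7 and 28.6 with MMA+FA. The lowest of the 6 libraries with FA (MMA+FA replicate 2, 23.69 TPM) lay just above the highest of the 6 without (control replicate 2, 23.36 TPM). The share of all genes separated in this way was not counted. Snai1 rose with MMA+FA to 118% of control, a log2 difference of 0.23 (SE 0.0785, adjusted p = 0.0382 in limma), or 0.34 after median-ratio scaling (adjusted p = 0.00455). That call was lost without control replicate 1 (0.20, adjusted p = 0.116) or 3 (0.21, adjusted p = 0.104), without MMA+FA replicate 1 (0.23, adjusted p = 0.0721) or 3 (0.16, adjusted p = 0.15), and with no filter on low values (adjusted p = 0.0719). FA alone gave 0.25 (adjusted p = 0.0581), which passed without FA replicate 2 (0.31, adjusted p = 0.0221) and also once libraries were scaled by median ratios (0.29, adjusted p = 0.0291). MMA alone gave 0.01 (95% interval -0.16 to 0.18).

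Snai2 (ENSRNOG00000047699), the more abundant Snail gene, was high in the MMA group alone. The MMA libraries held 60.8, 62.5 and 56.0 TPM of Snai2, above the 52.4, 51.5 and 49.97 TPM of control, the 45.8, 49.5 and 45.7 TPM of FA and the 50, 45.4 and 52.6 TPM of MMA+FA. Against control, MMA raised Snai2 by 0.22 (SE 0.0597, adjusted p = 0.0252 in limma), and by 0.29 after median-ratio scaling (adjusted p = 0.00585). The call was lost without control replicate 1 (0.23, adjusted p = 0.0564), 2 (0.22, adjusted p = 0.0591) or 3 (0.20, adjusted p = 0.0859), and without MMA replicate 1 (0.20, adjusted p = 0.0694) or 2 (0.18, adjusted p = 0.0865).

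Once FA was present Snai2 was lower than with MMA. It fell by 0.27 from MMA to MMA+FA (SE 0.0597, adjusted p = 0.0105 in limma) and FA lay below MMA by -0.34 (adjusted p = 0.0109). Both calls were lost without MMA replicate 2 (-0.24, adjusted p = 0.0543, and -0.31, adjusted p = 0.0589), and the second in a fit of only those groups (adjusted p = 0.0544). MMA+FA and control overlapped (-0.06, 95% interval -0.19 to 0.07). The interaction, which asks whether MMA moved Snai2 differently with FA, did not pass (-0.15, 95% interval -0.33 to 0.03, adjusted p = 0.393). Snai1 made up 27.1 ± 0.854% of the summed Snai1 and Snai2 TPM with MMA, 30 ± 1.2% in control cells and 36.0 ± 3.3% with FA (SD, n = 3).

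Snai3, the remaining Snail gene, is no member and was looked at after its values were seen. It lay at 2.87 ± 0.325 TPM in control cells, 1.77 ± 0.188 after MMA, 2.08 ± 0.0252 after FA and 1.37 ± 0.179 after both (SD, n = 3). With MMA+FA its log2 difference was -0.70 (SE 0.101), given with no test because of that choice. At this level the added 1 TPM understates a change.

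The Twist genes did not pass in any comparison. Twist1 (ENSRNOG00000011101) had 16.5, 17.0 and 18.6 TPM in control libraries, 16.4, 20.0 and 15.8 with MMA, 14.4, 15.3 and 16.6 with FA, and 14.9, 15.6 and 15.8 with MMA+FA. The MMA+FA libraries lay below the control libraries, with a log2 difference of -0.16 (95% interval -0.34 to 0.02, adjusted p = 0.142 in limma), or -0.04 after median-ratio scaling. Twist2 (ENSRNOG00000020355) was near the lower limit of testing, between 0.61 and 1.86 TPM in single libraries. Its control libraries reached over nearly that whole span (1.82, 1.04 and 0.61 TPM), and its difference with MMA+FA was 0.25 (95% interval -0.15 to 0.66), so changes of this gene were poorly resolved.

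**Figure D2:**
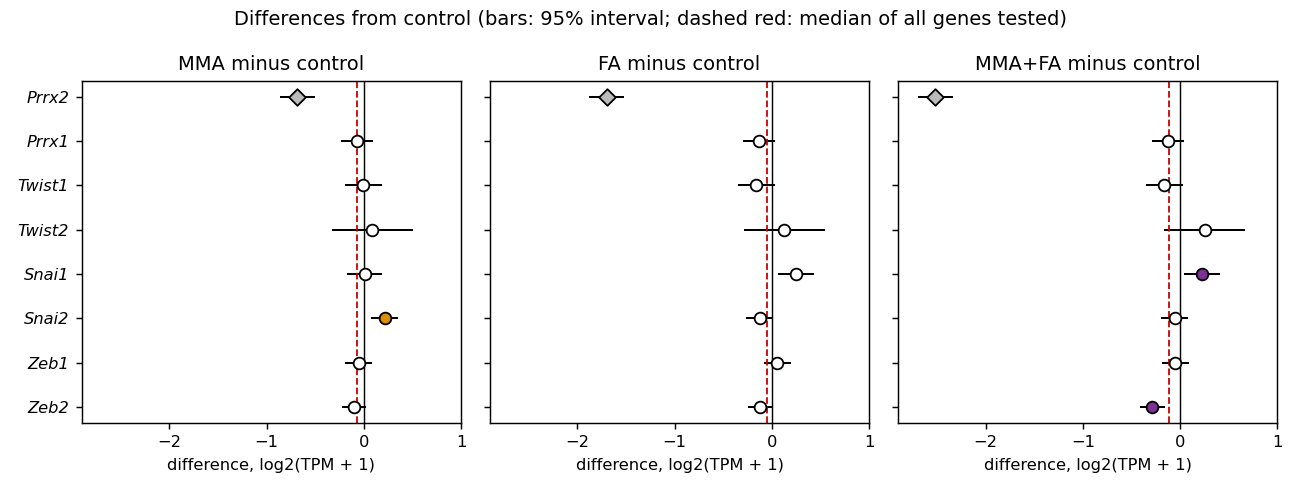
Difference from control in log2(TPM + 1) (horizontal axes) for each gene with MMA, FA and MMA+FA; bars are 95% intervals, filled circles passed at an adjusted p under 0.05, open circles did not, grey diamonds are Prrx2 (not tested), and the dashed line is the median of all genes tested. Prrx2 lies at -0.68, -1.70 and -2.52, and the other 7 genes lie between -0.29 and 0.25.

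Counted over the 7 genes other than Prrx2, limma called 1 of 7 with MMA against control (Snai2, higher), where 20.4% of all genes tested were called, 3.85% higher and 16.5% lower. With FA against control it called 0 of 7, with 2 at an unadjusted p under 0.05 (Snai1 and Zeb2), against 12.4% of all genes, 3.67% higher and 8.7% lower. With MMA+FA it called 2 of 7, 1 higher (Snai1) and 1 lower (Zeb2), against 39.3%, 6.67% higher and 32.6% lower. MMA+FA against MMA gave 2 of 7 (Snai2 and Zeb2, lower; 13.7% of all genes, 9.53% lower), MMA+FA against FA 0 of 7 with 1 at an unadjusted p under 0.05 (10.5%), and FA against MMA 1 of 7 (Snai2, lower; 7.87%, 2.51% lower). The interaction gave 0 of 7 at either level (2.41% of all genes). By the plainer measure of libraries that did not overlap, 2 of 7 were apart from control with MMA (45.3% of all genes), 3 with FA (33.7%) and 3 with MMA+FA (53.7%). MMA+FA stood apart from MMA for 4 of 7 (32.7%) and from FA for 1 (28.7%), and FA from MMA for 3 (27.8%). With so few genes, these counts do not set the 7 apart from the rest of the table.

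Of the same 7 genes, Zeb2 alone had group means in the order control, MMA, FA, MMA+FA. The summed TPM of the 7 was 200 ± 1.47 in control cells, 203 ± 11.4 after MMA, 192 ± 5.46 after FA and 189 ± 8.94 after both (SD, n = 3).  In control cells Prrx1 (56.6 TPM) and Snai2 (51.3) were the most abundant, followed by Prrx2 (36.0) and Zeb2 (35.2), whose libraries overlapped, then Snai1, Twist1 (17.4), Zeb1 (16.8) and Twist2 (1.16). With MMA+FA, Prrx2 (5.47) ranked below all of them but Twist2 (1.52).

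Genes most like Prrx2 were picked from all genes ranked, so a likeness above that of the 7 members chosen by name was nearly assured. The likeness used was Pearson's r of log2(TPM + 1) over the 12 libraries, given with no p because the libraries share treatments and the TPM scale. Among 9835 genes ranked, the genes with the highest values included Nrn1 (0.985), Smad9 (0.982), a signal carrier of BMP receptors, Enc1 (0.979), Negr1 (0.976), an adhesion protein of neurons, Gja1 (0.976), which encodes connexin 43, Zbtb1 (0.976) and Samd11 (0.975). Smad9 went from 9.23 ± 0.537 TPM in control cells to 5.85 ± 1.03 TPM in MMA, 3.79 ± 0.316 in FA and 1.90 ± 0.282 in MMA+FA cells (SD, n = 3), and Samd11 from 7.53 ± 0.391 to 1.67 ± 0.149 TPM with MMA+FA. All 7 of these genes had their group means in the order of Prrx2, which their choice by likeness to it nearly fixes.

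At the other end were Tnnt2 (-0.984), which encodes cardiac troponin T, Casq2 (-0.97), a calcium store protein of muscle, Stx11 (-0.969) and Pdlim1 (-0.966). Tnnt2 went from 16.1 ± 2.41 TPM in control cells to 73.6 ± 9.53 TPM with MMA+FA and Casq2 from 388 ± 6.82 to 490 ± 19.8 TPM (SD, n = 3). Among the members, r with Prrx2 was 0.871 for Zeb2 (place 388 of 9835), 0.64 for Twist1, 0.55 for Prrx1, 0.479 for Snai2, 0.0274 for Zeb1, -0.433 for Twist2 and -0.728 for Snai1. After median-ratio scaling r was 0.833 for Zeb2, 0.394 for Twist1, 0.189 for Prrx1, 0.237 for Snai2, -0.532 for Zeb1 and -0.866 for Snai1.

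**Figure D3:**
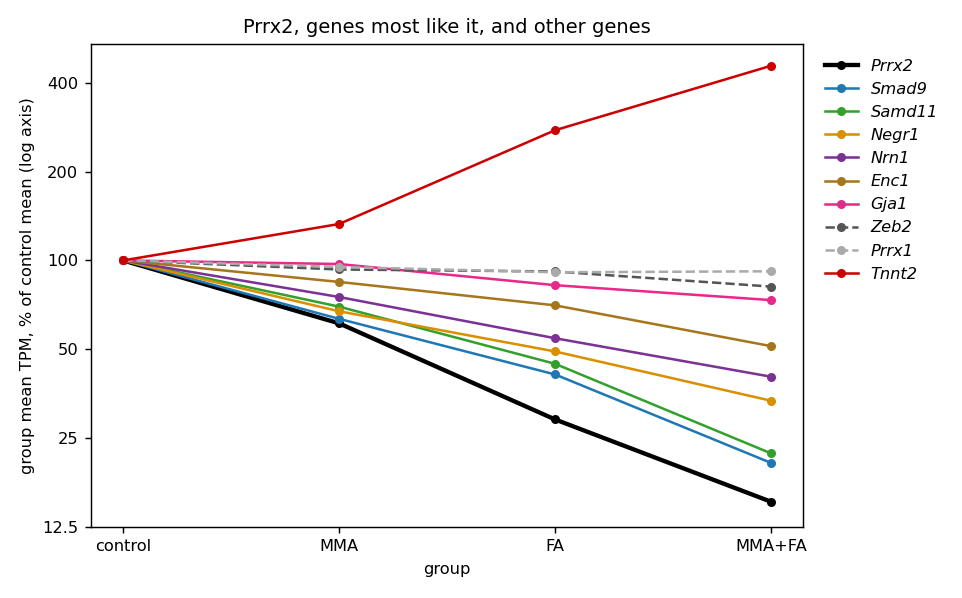
Group mean TPM as a percentage of the control mean (vertical log axis) over the 4 groups, for Prrx2, 6 of the genes most like it (Smad9, Samd11, Negr1, Nrn1, Enc1 and Gja1), Zeb2 and Prrx1 (dashed) and Tnnt2. Prrx2 reaches 15.2% with MMA+FA and Zeb2 81.6%; Tnnt2 runs the opposite way, from 16.1 to 73.6 TPM.

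Genes beside Prrx2 on its chromosome were checked as well, an addition made after its values were seen. Of the 5 nearest tested protein-coding genes on each side in the RefSeq assembly, 3 of 10 were called lower with MMA+FA and 0 higher, close to the 32.6% of all genes that were called lower. The adjacent gene Asb6, which encodes a SOCS-box protein and lies on the opposite strand with no overlap, was among them. It had 22.5, 24.6 and 23.2 TPM in control libraries and 14.9, 13.3 and 13.8 with MMA+FA, a log2 difference of -0.71 (SE 0.0861, adjusted p = 0.000144 in limma) that passed without any 1 library. MMA alone did not pass for Asb6 (-0.24, adjusted p = 0.0639), and FA alone (-0.33, adjusted p = 0.0313) was lost without any control replicate or FA replicate 1 or 2 (adjusted p = 0.0558 to 0.101), and after median-ratio scaling (adjusted p = 0.0579). Ier5l, further out on the side of Asb6, went from 24.9 to 16.2 TPM with MMA+FA (-0.60, adjusted p = 0.00501 in limma). On the other side Tor1b fell by 0.25 (adjusted p = 0.00685), a call lost after median-ratio scaling (-0.14, adjusted p = 0.11), and Tor1a lay at -0.02 (adjusted p = 0.84).

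Other transcription factors of mesenchyme moved in both directions. Of 48 listed, 30 were tested: 2 were higher and 7 lower with MMA, 4 and 3 with FA, and 2 and 13 after both. Of all genes tested 3.85% were higher and 16.5% lower with MMA, 3.67% and 8.7% with FA, and 6.67% and 32.6% after both. After median-ratio scaling the list gave 2 and 3 with MMA, 4 and 2 with FA, and 6 and 6 after both. Over all genes tested that scaling gave 8.16% higher and 6.91% lower calls with MMA, 5.78% and 3.88% with FA, and 15.5% and 13.9% after both. The list medians after both were -0.17, and -0.05 when scaled, beside -0.12 and 0.00 for all genes. Foxf2, a forkhead gene of gut and craniofacial mesenchyme, fell from 71.9 ± 2.33 TPM in control cells to 53.9 ± 2.53 after MMA, 51.5 ± 7.94 after FA and 37.9 ± 2.65 after both (SD, n = 3), the last a log2 difference of -0.91 (SE 0.0871, adjusted p = 3.48e-05 in limma). Runx2, the bone lineage factor, fell by 0.56 with MMA+FA (adjusted p = 8.83e-05). With FA, Runx1 rose by 0.41 (adjusted p = 0.0155; lost without control replicate 3 or FA replicate 1, at 0.0678 and 0.0581) and Foxc1 by 0.50 (adjusted p = 0.0189; lost without control replicate 3 or FA replicate 1 or 3, at 0.084, 0.0603 and 0.0618). Of the 21 paired-class homeobox relatives only 2, Shox2 and Otx1, were abundant enough to be tested, and Shox2 fell from 13.6 ± 0.444 to 9.97 ± 0.333 TPM with MMA+FA (-0.41, adjusted p = 0.000185).

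Partners of the Twist, Snail and Zeb proteins had more lower than higher calls with MMA+FA, as did all genes tested (32.6% lower and 6.67% higher). After median-ratio scaling 13.9% of all genes tested were lower and 15.5% higher. Of 22 E proteins and corepressors 1 was higher and 10 lower, or 2 and 5 after median-ratio scaling (median -0.14). Tcf4, the E protein gene, was the one that rose, from 16.1 ± 0.0458 to 19.8 ± 1.23 TPM (0.28, adjusted p = 0.00207), and the corepressor gene Rcor1 fell by 0.31 (adjusted p = 0.00101). With FA alone Tcf4 was the only call of that list (0.24, adjusted p = 0.0196), lost without any control replicate and without FA replicate 1 or 3 (adjusted p = 0.053 to 0.0804). Of 22 tested genes that act on the stability of these proteins 0 were higher and 11 lower, or 2 and 2 after scaling. Fbxo45, part of a ubiquitin ligase, fell by 0.50 (adjusted p = 0.000632) and the deubiquitinase gene Usp10 by 0.36 (adjusted p = 0.00044).

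The TGF-beta pathway, which induces Snail and Zeb genes, showed members on both sides. Of 26 TGF-beta and Notch genes tested 4 were higher and 11 lower with MMA+FA, 4 and 4 with FA, and 1 and 8 with MMA. After median-ratio scaling these were 5 and 7, 5 and 3, and 2 and 2. Of all genes tested 6.67% were higher and 32.6% lower with MMA+FA, 3.67% and 8.7% with FA, and 3.85% and 16.5% with MMA. After scaling these shares were 15.5% and 13.9% with MMA+FA, 5.78% and 3.88% with FA, and 8.16% and 6.91% with MMA. The ligand gene Tgfb3 rose from 168 ± 5.56 to 223 ± 13.1 TPM with MMA+FA (0.40, adjusted p = 0.00051 in limma). The receptor gene Tgfbr2 rose by 0.27 (adjusted p = 0.00132), while Tgfbr1 fell by 0.36 (adjusted p = 0.000601). Skil and Smad7, inhibitors of the pathway that are also its targets, fell by 0.68 (adjusted p = 2.91e-05) and 0.54 (adjusted p = 0.00038). Tgfb1 was lower with MMA+FA (-0.15, adjusted p = 0.0478), a call lost after median-ratio scaling (-0.03, adjusted p = 0.674) and without any control replicate or MMA+FA replicate 2 or 3 (adjusted p = 0.0528 to 0.165). Of 13 growth factor receptor and hypoxia genes 1 was higher and 6 lower with MMA+FA (2 and 3 after median-ratio scaling; scaled median -0.01), with Met at -0.39 (adjusted p = 0.000809) and Fgfr2 at -0.35 (adjusted p = 0.000388).

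Effector genes of the mesenchymal state were called higher more often than lower with FA and with MMA+FA. Of 26 tested, 8 were higher and 0 lower with FA, 7 and 4 with MMA+FA (15 and 0 after median-ratio scaling), and 1 and 3 with MMA (4 and 0). Of all genes tested 3.67% were higher and 8.7% lower with FA, 6.67% and 32.6% with MMA+FA, and 3.85% and 16.5% with MMA. After median-ratio scaling the all-gene shares were 15.5% higher and 13.9% lower with MMA+FA, and 8.16% and 6.91% with MMA. List medians were 0.11, 0.07 and 0.05, beside -0.05, -0.12 and -0.07 for all genes. Vim rose from 1880 ± 32.5 TPM in control cells to 2270 ± 198 with FA (0.27, adjusted p = 0.0136; lost without control replicate 3 or FA replicate 1, at 0.0629 and 0.0523) and 2340 ± 70.0 with MMA+FA (0.31, adjusted p = 0.00117). Acta2, smooth muscle actin, rose by 0.42 with MMA+FA (adjusted p = 0.000239). The fibronectin gene Fn1 fell from 1760 ± 64.1 to 1480 ± 106 TPM with MMA+FA (-0.25, adjusted p = 0.0072), but not after median-ratio scaling (-0.12, adjusted p = 0.128). All 7 smooth muscle markers were tested, and their sum, which includes Acta2, went from 6793 to 6837 TPM in control cells to 8286 to 8682 with MMA+FA. Fibroblast markers (6 of 10 tested, Tcf21 and Fap at 0) summed to 7145 to 7755 and 7338 to 8679 TPM in these groups. Their part was not tested.

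Of 30 epithelial genes that Snail and Zeb factors are known to repress, 8 were tested. With MMA+FA 1 was higher and 5 lower, or 3 and 3 after median-ratio scaling. Of all genes tested 6.67% were higher and 32.6% lower, or 15.5% and 13.9% after that scaling. The list median was -0.31, and -0.19 when scaled, beside -0.12 and -0.003 for all genes. Krt8, a keratin gene, rose from 21.2 ± 1.24 to 31.6 ± 1.54 TPM with FA (0.55, adjusted p = 0.00323 in limma) and to 30.3 ± 3.54 with MMA+FA (0.49, adjusted p = 0.00051). Tjp1, a tight junction scaffold gene, fell by 0.33 with MMA+FA (adjusted p = 0.000628). The epithelial marker sum (1 of 7 tested) went from 19.89 to 22.09 TPM in control cells to 26.87 to 33.94 with MMA+FA, and Krt8 made up nearly all of it, with Cdh1 and Epcam at or near 0. Endothelial markers (2 of 10 tested, Emcn at 0) summed to 44.93 to 48.77 and 45.52 to 46.6 TPM and leukocyte markers (1 of 9 tested, Adgre1 at 0) to 2.12 to 3.66 and 2.46 to 2.96 TPM.

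**Figure D4:**
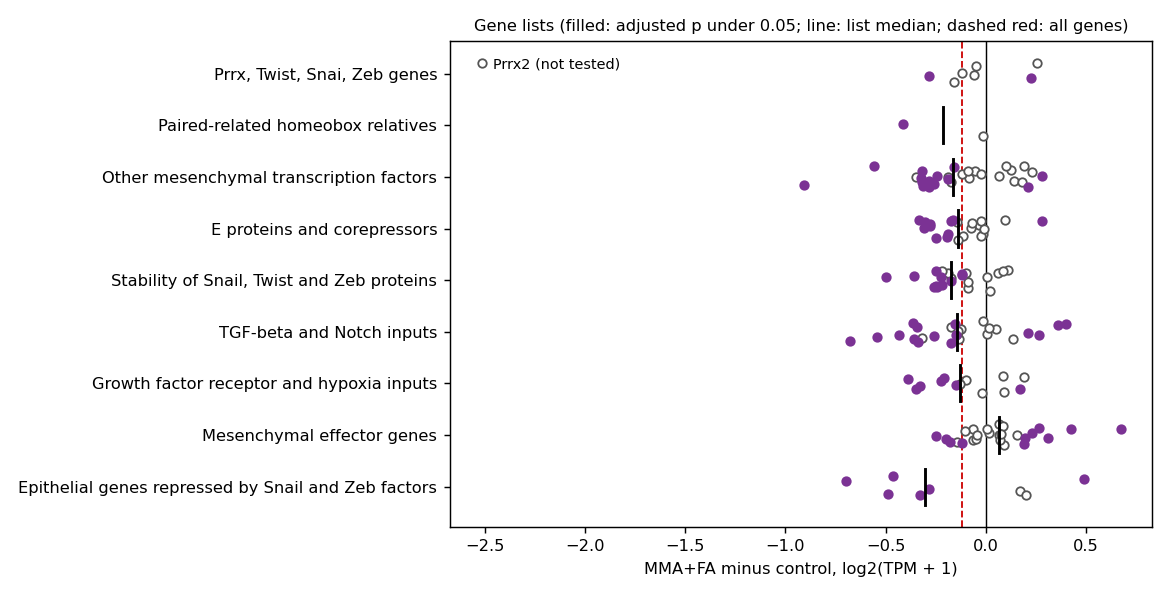
Difference of MMA+FA from control in log2(TPM + 1) (horizontal axis) for each tested gene of the 8 named genes and 8 gene lists; filled points passed at an adjusted p under 0.05, short lines are list medians and the dashed line is the median of all genes tested. Prrx2, which was chosen for its fall, lies at -2.52, and the lowest listed gene is Foxf2 at -0.91.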

How the data were processed

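RNA of the 12 libraries was taken up in TRIzol and made into stranded mRNA libraries, per the labels' protocols. Per the submitters' processing notes, fastp, HISAT2 and the build mRatBN7.2 were used. Their versions and settings and the annotation are not stated in these sources. The unit of the deposited gene table is TPM, as computed by the authors, and its title alone names RSEM. Read counts were not used, so depth is unknown.

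Of 30562 genes, the 12263 whose mean reached 1 TPM were fitted as log2(TPM + 1) in limma 3.58.1 (R 4.3.3) with 1 mean per group, a mean-variance trend and Benjamini-Hochberg adjustment over all genes tested. Calls are at an adjusted p under 0.05, and intervals are 95% and unadjusted. The members, lists and tests were chosen with earlier results of these data known. Beside the members, up to 4 called genes per list and comparison with control were named, those of largest difference whose libraries did not overlap and whose higher mean reached 5 TPM, with Vim, Fn1, Cdh2, Cdh1, Epcam, Tgfb1, Tgfbr1 and Tgfbr2 as fixed names. Likeness to Prrx2 was ranked among genes whose highest group mean reached 5 TPM. A symbol on several loci was taken at the highest mean. On simulated data for FA against control (12263 genes) the code recovered 80.8% of genes changed by 0.5 and 97% changed by 1 (log2). Values there were independent and normal, 200 genes were changed and the median did not shift, unlike in the real comparisons. The simulation checks the code and does not measure recovery in these data. Some genes that these rules would name are not reported here.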

Additional observations from a re-analysis of the deposited data

How the results depend on the processing

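Numbers of genes called among the 7 other than Prrx2 moved by more than 1.5 times in these cases. Against control, FA gave 1 in place of 0 after median-ratio scaling, after quantile normalization and with a mean of at least 5 TPM, and 0 to 1 with 1 library left out. MMA gave 0 to 1 in place of 1 and MMA+FA 1 to 2 in place of 2 with 1 library left out, and MMA+FA gave 1 with no filter on low values. For MMA+FA against MMA the count was 1 in place of 2 with no filter, with a replicate block and in a fit of only the groups compared, and 0 to 2 with 1 library left out. For FA against MMA it was 0 in place of 1 in a fit of only the groups compared, and 0 to 2 with 1 library left out. The number of genes in the order of Prrx2 was 1 to 3 in place of 2 with 1 library left out, Prrx2 included. Same-numbered replicates correlated between -0.124 and 0.107 after removal of group means, and 0 of 12 libraries correlated best with their own number, so the numbers do not pair the libraries. The replicate block changed no call of the members but that of Zeb2 in MMA+FA against MMA.

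Across members and settings, 734 differences were counted as the same, which for tested genes includes their side of the threshold. Calls were lost for 22 and gained for 7, 49 with no call in either fit were counted as moved, and 0 called differences reversed. These totals include Prrx2, which had no test, with 111 the same and 6 moved. Its differences were negative in every setting, so its moved entries are no changes of sign. Prrx2 against control ranged from -0.71 to -0.61 with MMA, -1.78 to -1.65 with FA and -2.70 to -2.38 with MMA+FA, with the extreme of the last at a pseudocount of 0.1. The cause of these shifts was not tested. Leaving 1 library out leaves 2 in its group, whose spread is then pooled with the other groups. With 3 libraries per group and no counts, changes of low genes such as Twist2 are poorly resolved.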
